A study of Arabidopsis thaliana with 3 samples.

Results

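The genes of the ubiquitin system were examined in *A. thaliana* seedlings under oxidative stress. They were taken from the deposited comparison of *dss1(I)* with WT, as the genes whose description holds ubiquitin or proteasome (also inside a word) or, as a whole word, F-box, RING, U-box, E3, cullin or BTB, and whose cell for a protein domain is empty. The 2 *DSS1* genes were left out by rule. This gave 49 genes of the 2762 in the table. Another 39 genes carry the same words but have a domain entry, and they are described separately as other genes of the pathway. No gene of the table is described with the word proteasome or cullin (0 genes each). By the words of their descriptions, the 49 genes are ligases, ligase adaptors, a hydrolase, ubiquitin-like proteins and an enzyme that conjugates one of them. The words do not show the function of each gene, and a few may be used in another sense.

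WT seedlings (Columbia-0) and seedlings of the homozygous CRISPR/Cas9 line *dss1(I)*del25, labelled a knockdown, were 14 days old when they were moved for 3 days to medium with 10 mM H2O2. Both genotypes received this treatment, and no untreated seedlings were analysed here. The RNA of whole seedlings from independent experiments was combined into 1 library per genotype, so that the differences have no replicate check and no p-value is given. A library of *dss1(V)* seedlings is not analysed here. On genes, the *dss1(I)* library holds 11033843 reads and the WT library 9394592, of which 5917 and 7778 fall on the 49 genes. *AtDSS1(I)*, the targeted gene, had 233 *dss1(I)* and 807 WT reads, and its paralog *AtDSS1(V)* had 21 and 73. The table lists only genes that the authors called different, so that every share below is among called genes. In RNA of whole seedlings, fewer cells of a type and less RNA per cell cannot be told apart.

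Ubiquitin is a small protein that is joined to other proteins through an activating enzyme (E1), a conjugating enzyme (E2) and a ligase (E3), and the E3 selects the substrate. Single-subunit E3s carry a RING, a U-box or a HECT domain. In SCF ligases an F-box protein is the adaptor that recruits the substrate, and in CUL3 ligases this is done by a BTB protein. Chains of ubiquitin mark proteins for the 26S proteasome, of whose lid the DSS1 protein is itself a small subunit. Ubiquitin-like proteins such as SUMO, UFM1, URM1 and ATG12 are joined to their targets by enzymes of the same kind. Plants have very large F-box and RING families, and many ATL genes, a family of membrane-anchored RING-H2 ligases, respond quickly to elicitors and abiotic stress.

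Of the 49 genes, 33 were lower and 16 higher in *dss1(I)* than in the WT. The log2 ratio used here is that of the authors' scaled counts with a pseudocount of 1 added. Here and in the counts by class and length, higher and lower mean the sign of this ratio alone. Counts past a limit on the ratio were made among genes whose scaled count reached 10 in 1 or both libraries, a condition met by 47 of the 49 genes. Of these, 30 had a log2 ratio of at most -1, and 51.0% of the 2620 genes of the table that met the same condition did. A ratio of at least 1 was found for 16 of the genes, against 48.1% of the 2620. Scaling of the libraries by the median ratio over the table left 7 of the 30 genes at -1 or less. The table holds only called genes, so that its median ratio lies among the lower ones. With this scaling the log2 ratios rose by a median of 1.02, so that falls near -1 could not stay past the limit. The count left, here and by class below, therefore does not tell how firm the falls are. A ratio of at least 2 was found for 1 gene (6.3% of the 2620) and of at most -2 for 6 genes (12.3% of the 2620). The median log2 ratio of the 47 genes was -1.12 and that of the 2620 genes was -1.02. In share, 32.7% of the 49 genes were higher.

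**Figure D1:**
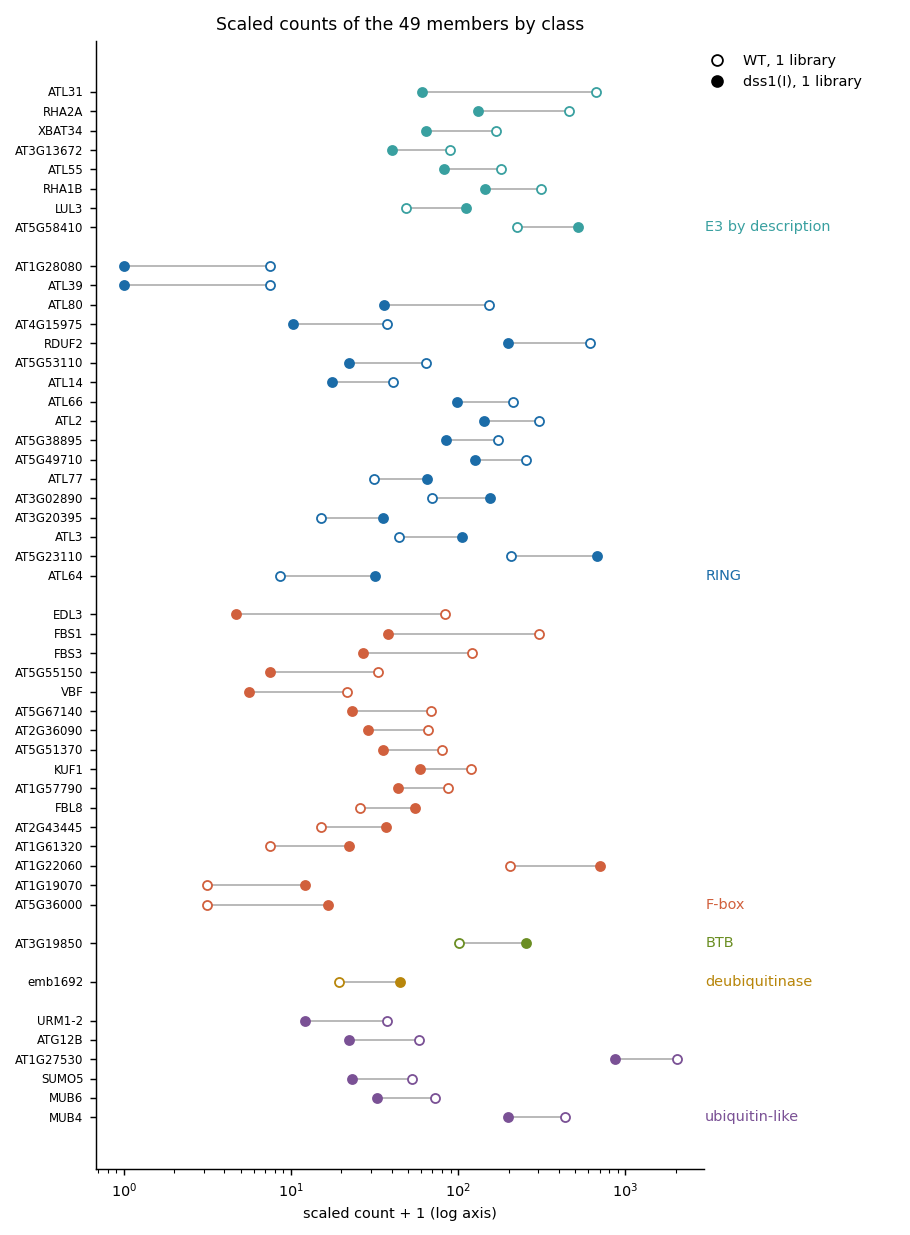
Scaled counts of each of the 49 genes in WT (open circles) and *dss1(I)* (filled circles), 1 library each, with 1 added and on a log axis, sorted by class and log2 ratio. The 6 ubiquitin-like genes were all lower in *dss1(I)*, and AT1G27530 had the highest counts of the 49 genes in both libraries.

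The direction has to be read against gene length, since long genes of this table are mostly higher and short ones mostly lower. The 49 genes have a median length of 1372 bp (from 252 to 14494 bp), and the table has a median of 1703 bp. The genes that were higher have a median of 1759.5 bp and those that were lower of 1179 bp, while in the whole table these medians are 2913 and 1184 bp. When the other genes of the table were weighted to the lengths of the 49 genes over 8 length bands, 30.8% of them were higher, beside the 32.7% of the 49 genes. The number of lower genes was therefore close to that of other called genes of the same lengths.

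Within the bands the numbers were also alike. Of the 13 genes from 814 to 1084 bp, 2 were higher, and 9.04% of the other genes of these lengths were. Of the 13 genes from 1350 to 1703 bp, 3 were higher (28.6% of the others), and of the 9 genes from 1705 to 2177 bp, 5 were (52.2% of the others). All 4 genes longer than 2909 bp were higher, where at least 94.8% of the other genes in each of their bands were. Among the 45 shorter genes, 12 were higher and 33 were lower.

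**Figure D2:**
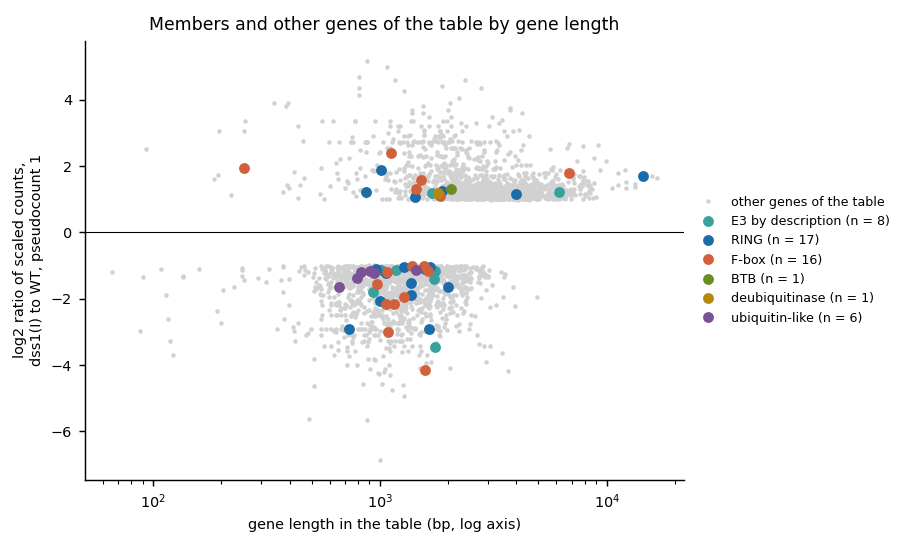
Log2 ratio of *dss1(I)* to WT (scaled counts, pseudocount 1) against gene length in bp on a log axis, with 1 grey point for each other gene of the table and colored points for the 49 genes by class. All 4 of the 49 genes longer than 2909 bp lie above 0, and most of the shorter ones lie below it among grey points of the same length.

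The RING-type ligases form the largest group. By their description 17 genes are RING proteins and 8 more are E3 ligases named by activity, most of which also have a RING domain. Of these 25 genes, 17 were lower and 8 were higher. At -1 or less were 9 RING genes and 6 E3 genes, and with scaling by the median ratio over the table this was 1 of each. The share that was higher was 32.0%, and in other genes of the same lengths it was 35.7%.

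The E3 gene with the greatest difference was *ATL31* (*CNI1*, AT5G27420), a membrane-anchored ligase that controls the response of seedlings to the ratio of carbon to nitrogen. It lies on the plus strand of chromosome 5 of TAIR10 (chr5:9683988-9685742) and has no intron. It had 64 *dss1(I)* and 614 WT reads (FPKM of 3.31 and 37.2), a log2 ratio of -3.46 with an exact 95% interval from -3.87 to -3.11 that covers counting error only. Here and below, the value for *dss1(I)* is given first and that for WT second. The RNA level of *ATL31* was thus 11.0-fold lower in *dss1(I)* on the scaled counts. Among the 100 other genes of the table nearest to it in length, 2 had a lower log2 ratio.

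*ATL80* (AT1G20823), a RING gene of the same family with known roles in phosphate use and cold, was the lowest of the RING class among genes with at least 10 scaled counts in both libraries. It had 38 *dss1(I)* and 141 WT reads (FPKM of 3.42 and 14.9), and the log2 ratio was -2.08 (interval from -2.67 to -1.58). Of the 100 genes nearest in length, 21 had a lower ratio, so that *ATL80* lay well inside the spread of genes of its length, whereas *ATL31* was near its end.

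*RHA2A*, a positive regulator of abscisic acid signaling, had 141 *dss1(I)* and 426 WT reads (log2 ratio of -1.80, interval from -2.10 to -1.53). *RDUF2* (AT5G59550), a RING ligase of the drought response that depends on abscisic acid, had 213 and 571 (log2 ratio of -1.64, interval from -1.87 to -1.41). For both genes the whole interval lay below -1. At the length of *RDUF2*, 56.0% of the 100 nearest genes were higher in *dss1(I)*, so that this gene moved against the greater number of its neighbors in length.

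The further E3 genes that were lower had smaller ratios. *XBAT34*, an ankyrin-repeat RING ligase, had 68 *dss1(I)* and 156 WT reads (log2 ratio of -1.40, interval from -1.85 to just above -1). *RHA1B* had 154 and 289 (log2 ratio of -1.12, interval from -1.42 to -0.84). *ATL55* (*RING1*), a ligase linked to programmed cell death in the immune response, had 88 and 167 (log2 ratio of -1.13). The last 2 ratios were near the median of the 47 genes that met the minimum count. AT3G13672, listed as *SINA2* among the synonyms of the annotation, had 42 and 82 reads (log2 ratio of -1.16). It overlaps a gene on the opposite strand over 986 bp, and the counting is not stated to use strand, so that its count is uncertain.

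In the RING class, AT5G53110 had 23 *dss1(I)* and 59 WT reads (log2 ratio of -1.53, interval from -2.34 to -0.86). AT4G15975 had 10 and 34 reads (log2 ratio of -1.88, interval from -3.17 to -0.93). Both are low genes, and the intervals were wide. *ATL2*, the founding member of the ATL family and an early gene of the elicitor response, had 152 and 282 reads (log2 ratio of -1.10). *ATL66* had 105 and 196 (log2 ratio of -1.11), and *ATL14* had 18 and 37 (log2 ratio of -1.21). The ratios of these ATL genes lay close to each other. AT5G38895 and AT5G49710 were just past the limit, with 90 and 134 reads in *dss1(I)*, 159 and 236 in WT, and a log2 ratio of -1.03 for each.

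In the RING class, 2 genes with few reads did not meet the minimum count. *ATL39* and AT1G28080 had 0 *dss1(I)* and 6 WT reads each. Against a floor of 3 reads in the *dss1(I)* library, each was at least 2.33-fold lower if the 6 WT reads are taken without error. With the counting error of both libraries, the upper end of the interval was -0.45 on the log2 scale.

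Of these classes, 8 genes were higher in *dss1(I)*. The longest of all 49 genes, AT5G23110 (14494 bp), is described as a C3HC4-type zinc finger protein and had 727 *dss1(I)* and 190 WT reads (log2 ratio of 1.71, interval from 1.49 to 1.96). AT5G58410 is listed as listerin, an E3 that in yeast and mammals marks unfinished protein chains on stalled ribosomes. It is 6165 bp long and had 561 and 207 reads (log2 ratio of 1.22, interval from 0.99 to 1.46). AT3G02890 (3992 bp) had 166 and 64 (log2 ratio of 1.15, interval from 0.73 to 1.60). It is described only as a RING/FYVE/PHD zinc finger protein, so that its place among RING ligases is doubtful. For the first 2 of these genes, 100% of the 100 genes nearest in length were higher as well, and for AT3G02890 98.0% were.

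Of the 5 short ones among the higher genes, 4 stood against the direction of most genes of their length, and the exception was *ATL3*, where 51.0% of the 100 nearest genes were higher. *ATL3* had 113 *dss1(I)* and 40 WT reads (log2 ratio of 1.26, interval from 0.75 to 1.84). *ATL64* had 33 and 7 (log2 ratio of 1.89, interval from 0.82 to 3.44), and 4 of the 100 genes nearest to it in length were higher. The reads of *ATL64* overlap with those of 2 genes on the opposite strand over 76 and 239 bp. *LUL3*, a ligase of the LOG2 family, had 119 and 44 reads (log2 ratio of 1.20, interval from 0.71 to 1.75). *ATL77* had 69 and 28 (log2 ratio of 1.06), and it overlaps another gene on the opposite strand over 845 bp. AT3G20395 had 37 and 13 (log2 ratio of 1.23, interval from 0.35 to 2.33), where the interval is wide.

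Genes named ATL or RHA can be looked at as a family, since all 12 of them have no intron. Of these, 9 were lower and 3 were higher (*ATL3*, *ATL64* and *ATL77*). The median log2 ratio was -1.12 among the 11 that met the minimum count. In other genes of the same lengths 20.6% were higher. Intronless genes made up 38.8% of the 49 genes (19 genes) and 23.3% of the 2681 genes of the table with an annotated coding sequence. Of the 19 intronless genes, 14 were lower and 5 were higher. In the whole table, 33.5% of the 626 intronless genes were higher, and of the 2055 genes with introns 53.6% were.

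**Figure D3:**
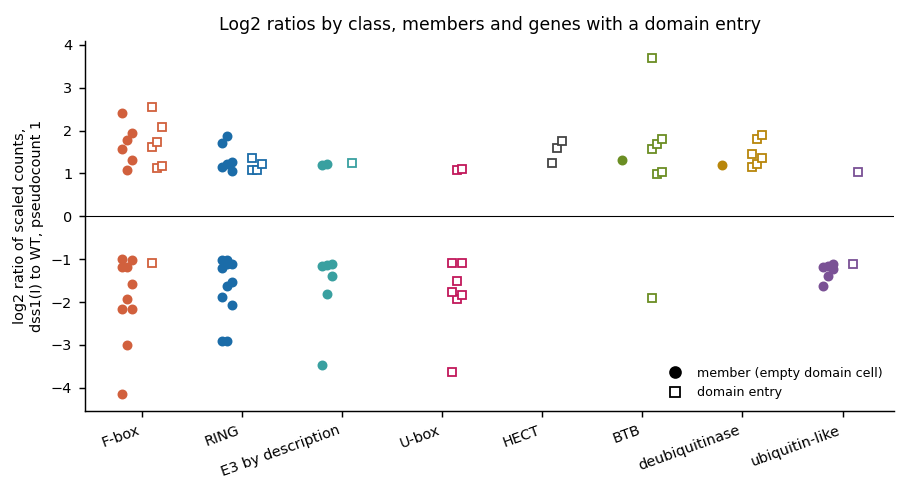
Log2 ratio of *dss1(I)* to WT (scaled counts, pseudocount 1) by class, with filled circles for the 49 genes and open squares for the 39 genes that share the words but have a domain entry. The U-box genes lie mostly below 0 (7 of 9), whereas all 3 HECT genes and all 7 genes classed as deubiquitinases by words lie above it.

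F-box proteins were the other large class, with 10 genes lower and 6 higher of 16 by sign, of which 9 reached -1 and 6 reached 1. With scaling by the median ratio over the table, 5 reached -1. The share that was higher was 37.5%, and in other genes of the same lengths it was 26.9%. The F-box class also held the widest range of the 49 genes, from -4.14 to 2.41 on the log2 scale. At most -2 were 4 of its genes.

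*EDL3* (AT3G63060), an F-box gene of abscisic acid signaling, had the lowest log2 ratio of the 49 genes. It had 4 *dss1(I)* and 76 WT reads (FPKM of 0.23 and 5.13), a log2 ratio of -4.14 with an interval from -6.38 to -3.05. It was singled out after its values were seen. None (0) of the 100 genes nearest in length had a lower ratio. *FBS1* (AT1G61340), whose name stands for F-box stress induced, had 40 and 280 reads (FPKM of 3.34 and 27.4) with a ratio of -2.99 on the log2 scale (interval from -3.54 to -2.54). Its homolog *FBS3* (AT4G05010) had 28 and 111 reads (FPKM of 2.39 and 11.1) with a ratio of -2.16 (interval from -2.86 to -1.60). On the scaled counts *FBS1* was thus 7.95-fold and *FBS3* 4.48-fold lower in *dss1(I)*. Of the 100 genes nearest in length, 10 had a lower ratio than *FBS1* and 19 a lower one than *FBS3*.

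The starts of the 4 genes with the lowest log2 ratios among the E3, RING and F-box genes named by rule are shown. These are the largest falls among genes with at least 10 scaled counts in both libraries. *EDL3* and AT5G55150 had lower ratios than *ATL80* but did not reach this count in *dss1(I)*. Each stretch runs from 250 bases before to 50 bases after the annotated start, was read from the TAIR10.1 genome of RefSeq and is written 5′ to 3′ on the plus strand, which is the strand of all 4 genes. Capitals mark the letters TTGAC (the core of the W-box bound by WRKY factors), GAANNTTC (the unit of heat shock elements) and ACGTG (the core of G-box and ABRE elements), on either strand. Where ACGTG overlapped on both strands, the run reads CACGTG.

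ATL31, chr5:9683738-9684037: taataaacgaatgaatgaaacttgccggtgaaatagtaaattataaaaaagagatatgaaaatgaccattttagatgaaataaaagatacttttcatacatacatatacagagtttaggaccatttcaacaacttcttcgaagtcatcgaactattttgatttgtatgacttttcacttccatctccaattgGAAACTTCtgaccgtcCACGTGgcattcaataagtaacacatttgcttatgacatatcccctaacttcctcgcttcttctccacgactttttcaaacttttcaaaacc
FBS1, chr1:22628014-22628313: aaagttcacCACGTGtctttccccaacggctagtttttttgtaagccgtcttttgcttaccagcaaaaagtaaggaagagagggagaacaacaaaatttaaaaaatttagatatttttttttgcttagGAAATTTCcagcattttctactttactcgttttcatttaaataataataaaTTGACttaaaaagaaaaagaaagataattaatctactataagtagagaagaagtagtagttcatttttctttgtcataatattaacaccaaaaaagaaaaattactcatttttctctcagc
FBS3, chr4:2566933-2567232: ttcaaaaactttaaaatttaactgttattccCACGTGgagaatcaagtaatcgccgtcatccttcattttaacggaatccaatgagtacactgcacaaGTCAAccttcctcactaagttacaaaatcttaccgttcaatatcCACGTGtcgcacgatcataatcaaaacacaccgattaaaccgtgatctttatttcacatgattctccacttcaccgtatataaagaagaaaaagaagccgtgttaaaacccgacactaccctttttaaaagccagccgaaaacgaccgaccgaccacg
ATL80, chr1:7238443-7238742: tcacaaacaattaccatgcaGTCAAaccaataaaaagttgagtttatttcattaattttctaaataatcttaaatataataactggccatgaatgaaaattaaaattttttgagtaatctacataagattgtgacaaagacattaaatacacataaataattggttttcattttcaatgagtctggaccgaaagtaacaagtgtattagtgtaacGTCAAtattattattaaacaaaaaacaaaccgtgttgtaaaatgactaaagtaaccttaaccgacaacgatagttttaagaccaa

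The starts of *ATL31* and *FBS1* hold 1 run with GAANNTTC and 1 with ACGTG each, and that of *FBS3* holds 2 with ACGTG. The letters TTGAC were found 1 time at *FBS1*, 1 time at *FBS3* and 2 times at *ATL80*, and 0 times at *ATL31* in this window. Over all genes that were lower, TTGAC lay in the window of 24 of 33 (72.7%), and over those that were higher in 7 of 16 (43.8%). In the table it was present in 56.7% of the 1370 lower and 48.5% of the 1310 higher genes, and in the whole genome in 50.5% of 27443 protein-coding genes. ACGTG was present in 12 of the 33 lower genes (36.4%), beside 33.8% of the lower genes of the table and 26.7% of all. GAANNTTC was present in 6 of the 33 (18.2%), beside 14.2% and 11.6%. TGGGC, the core of the site of TCP factors that is common in proteasome genes, was present in 5 of the 33 (15.2%), beside 21.8% of the lower and 25.7% of the higher genes of the table. A match describes the letters and not a site in use, and both strands were searched.

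The other F-box genes that were lower had fewer reads. AT5G67140 had 24 *dss1(I)* and 63 WT reads (log2 ratio of -1.57, interval from -2.35 to -0.91). AT5G55150 had 7 and 30 (log2 ratio of -2.16, interval from -3.75 to -1.10). *VBF*, which in infection by *Agrobacterium* takes part in removing proteins from the T-DNA, had 5 and 19 (log2 ratio of -1.93, interval from -3.92 to -0.67). With so few reads in *dss1(I)*, the last 2 ratios were known only within a wide interval. *KUF1*, a marker gene of the karrikin response, had 63 and 110 reads (log2 ratio of -1.01, interval from -1.49 to -0.56). AT2G36090 had 30 and 60 reads (log2 ratio of -1.19), and AT5G51370 had 37 and 73 (log2 ratio of -1.17). AT1G57790 had 46 and 80 reads and a log2 ratio just above -1, so that it is lower by sign but not past the limit.

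Of the 6 F-box genes that were higher, AT1G22060 (6817 bp) had the most, 760 *dss1(I)* and 189 WT reads (log2 ratio of 1.79, interval from 1.56 to 2.03). The words of its description name an F-box protein only as a best match, so that its place in this class is doubtful. *FBL8* (AT4G07400, *VFB3*) had 58 and 23 reads (log2 ratio of 1.09, interval from 0.40 to 1.88), and AT2G43445 had 39 and 13 (log2 ratio of 1.31, interval from 0.43 to 2.40). These intervals stayed above 0 but reached below 1.

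The 3 other F-box genes that were higher had under 10 reads in WT, and their counts are uncertain for a further reason. AT5G36000, the highest ratio of the 49 genes at 2.41 (interval from 0.80 to 6.03), had 17 *dss1(I)* and 2 WT reads. It overlaps an annotated gene on the same strand over 252 bp, and a stretch of 201 bp has a copy elsewhere with 95.5% identity. AT1G19070 (12 and 2 reads, log2 ratio of 1.94) lies over its whole length of 252 bp in a longer gene of the same strand. AT1G61320 (23 and 6 reads, log2 ratio of 1.58) shares 308 bp at 99.4% identity with another place in the genome. Of the 49 genes, 12 overlap another annotated gene and 2 have such a near-identical stretch.

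Among the 49 genes, of the classes with more than 1 gene, the ubiquitin-like class was the one in which all genes had the same direction. All 6 were lower in *dss1(I)*, with a median log2 ratio of -1.20. Each was at -1 or less, which the authors' limit for a call largely sets. With scaling by the median ratio over the table, 0 of the 6 reached -1. They are also short genes (659 to 1439 bp), and in other genes of these lengths 14.1% were higher. AT1G27530, the UFM1-conjugating enzyme, was the most abundant of the 49 genes by FPKM, with 89.7 in *dss1(I)* and 211.5 in WT. It had 933 and 1874 reads and the most precise ratio, -1.22 on the log2 scale (interval from -1.34 to -1.11). The next genes by mean FPKM were *RHA2A* (31.2), *RHA1B* (22.2), *MUB4* (21.6) and *ATL31* (20.3), so that the conjugating enzyme, with 150.6, stood far above all others.

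*MUB4* and *MUB6* encode membrane-anchored ubiquitin-fold proteins, which dock E2 enzymes at the plasma membrane. *MUB4* had 214 *dss1(I)* and 402 WT reads (log2 ratio of -1.12, interval from -1.37 to -0.88). *MUB6* had 34 and 66 (log2 ratio of -1.15, interval from -1.82 to -0.56). *MUB6* overlaps AT1G22060 over 92 bp and another gene over 450 bp, both on the opposite strand, and it differed in the opposite direction from AT1G22060. *MUB4* overlaps a gene of the same strand over 106 bp and one of the opposite strand over 274 bp, so that the counts of both are uncertain. *SUMO5*, a divergent SUMO, had 24 and 48 reads (log2 ratio of -1.18, interval from -1.99 to -0.48). *ATG12B*, a protein joined to ATG5 in the making of autophagosomes, had 23 and 53 (log2 ratio of -1.38, interval from -2.20 to -0.69). *URM1-2*, whose yeast homolog carries sulfur for the modification of tRNA, had 12 and 34 (log2 ratio of -1.64, interval from -2.80 to -0.73). All intervals of this class lay below 0, which the selection of called genes largely sets, and that of AT1G27530 alone lay wholly below -1.

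The other classes have 1 gene each, and both genes were higher. AT3G19850, a BTB protein, had 272 *dss1(I)* and 93 WT reads (log2 ratio of 1.32, interval from 0.99 to 1.69). *emb1692*, described as a ubiquitin carboxyl-terminal hydrolase, had 47 and 17 (log2 ratio of 1.21, interval from 0.42 to 2.14). Its domain cell is empty, while the 6 deubiquitinases of the other set have the entry UCH, so that its class is doubtful. In other genes of the length band of AT3G19850 and *emb1692*, 52.2% were higher. Over all 49 genes, the counting interval lay wholly below -1 for 9 genes and wholly above 1 for 2 genes. In the table this was so for 21.3% and 14.8% of the 2762 genes.

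**Figure D4:**
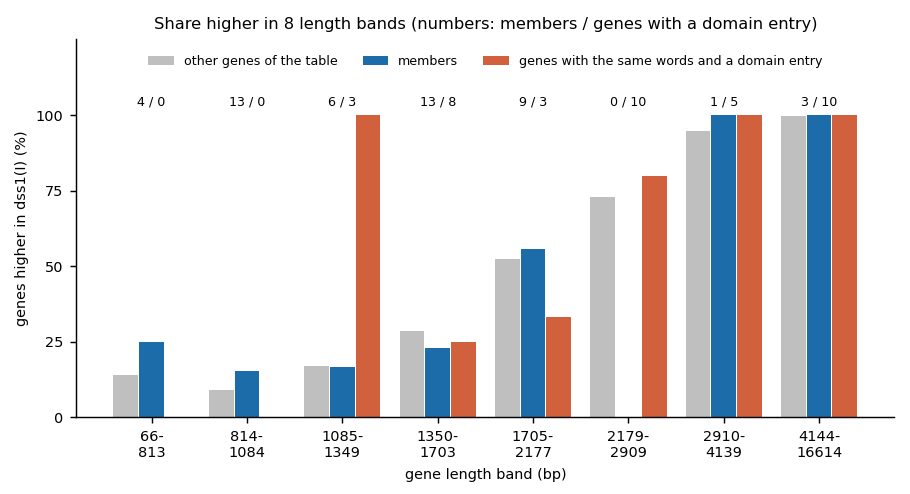
Percent of genes higher in *dss1(I)* in 8 bands of gene length (bp), for other genes of the table (grey), the 49 genes (blue) and the 39 genes with the same words and a domain entry (orange), with the numbers of the last 2 above the bars. The share of other genes rises from 14.0% in the shortest band to 99.7% in the longest, and no bar is drawn where a set has no gene or no gene that was higher.

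The 39 genes with the same words and a domain entry differ from the 49 genes in length and direction. Their median length is 2423 bp, 29 were higher and 10 were lower. The share of 74.4% that was higher stands beside 67.5% of other genes at these lengths. When these genes were added to the 49, 45 of 88 genes were higher and 43 were lower, so that the count by direction depends on the empty domain cell in the rule.

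The U-box ligases, all of which fall into this second set, were the class that was mostly lower. Of 9 genes 7 were lower, with a median log2 ratio of -1.51, and 22.2% were higher where 51.3% of other genes of these lengths were. The comparison takes account of length only. Of the 9 genes, 6 have no intron, and all 6 were lower, while 33.5% of all intronless genes of the table were higher. *PUB19*, an abscisic acid and drought response gene, had 40 *dss1(I)* and 439 WT reads (log2 ratio of -3.64, interval from -4.18 to -3.20). *PUB23* and *PUB24*, which dampen immune signaling, had 44 and 38 reads in *dss1(I)* against 138 and 113 in WT (log2 ratios of -1.84 and -1.76). *PUB20* (*CMPG1*) and *PUB27* (*CMPG2*) had log2 ratios of -1.51 and -1.93. The difference of *PUB19* was thus of the size of that of *ATL31*.

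The large HECT ligases had the other direction. *UPL1*, *UPL2* and *UPL3*, a regulator of trichome shape, were all higher, with log2 ratios of 1.59, 1.76 and 1.25, as were 99.7% of other genes of their lengths. *UPL1* and *UPL2* share a stretch of 801 bp at 95.8% identity, between which the counting could have split reads. *PRT6*, the ligase of the N-degron pathway, had 1022 *dss1(I)* and 369 WT reads (log2 ratio of 1.25). The 4 genes of this set classed as RING by a word of their description were all higher (93.0% of others at their lengths were). Their domain entries are PHD or SNF2_N, so that their place among RING ligases is doubtful. With the 17 RING genes above, 10 of 21 were higher and 11 were lower (47.6% higher, against 43.7%). The 6 deubiquitinases of this set were higher (89.1% of others at their lengths were). The BTB genes were higher in 6 of 7 cases (68.0% of others were). Of the 7 F-box genes, 6 were higher where 38.4% of other genes of their lengths were, and with the 16 F-box genes above this makes 12 of 23 (52.2%, against 30.2%). Under 10 reads in WT were found for 4 of these 6 genes and for 7 of the 12. Of the 2 ubiquitin-like genes of this set, 1 was lower and 1 was higher. *UBQ11*, a polyubiquitin gene, had 3794 and 7104 reads (FPKM of 239.8 and 527.3, log2 ratio of -1.12, interval from -1.18 to -1.07). AT1G27752, described as a ubiquitin system component, had 401 and 168 reads (log2 ratio of 1.03, interval from 0.77 to 1.31).

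Few genes of neighboring pathways were in the table. Of 5 autophagy genes, *ATG2*, *ATG11* and *ATG9* were higher (log2 ratios of 1.43, 1.32 and 1.07), and *ATG8D* and *ATG8G*, the ubiquitin-like proteins of the autophagosome membrane, were lower (log2 ratio of -1.10 for *ATG8D* and just above -1 for *ATG8G*). The short *ATG8* genes thus had the direction of *ATG12B*. The adaptor *ASK4*, a SKP1-like protein that binds F-box proteins, was lower (107 and 193 reads, log2 ratio of -1.06). *SAE1B-2*, a subunit of the E1 for SUMO, was higher (136 and 52 reads, log2 ratio of 1.16), as was *EBS1* of protein quality control in the endoplasmic reticulum (log2 ratio of 1.36). No gene of the RUB pathway or the COP9 signalosome was in the table (0 genes).

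Some marker genes of leaf, root and seed were in the table. It holds only called genes, so that markers that did not differ cannot be seen. The leaf, root and seed genes have median lengths of 190.5, 1912 and 1274 bp. In the bands of these lengths, 14.0%, 52.2% and 16.9% of other genes were higher. In the table, 4 of 4 leaf genes were lower (391 reads in *dss1(I)* and 807 in WT in sum). Most of these reads were those of *LHCB4.3* (352 and 715). The other leaf genes, *PSAJ*, *PSAC* and *PSAI*, lie on the chloroplast genome, and the RNA was selected by poly-A. Of 7 root genes, 5 were higher and 2 were lower (345 and 405 reads), with *RHS13* at 0 in WT. Of 7 seed genes, 6 were lower and 1 was higher (128 and 494 reads). Most of the seed genes are late embryogenesis abundant genes. The authors describe this family as induced by stresses such as cold and drought, so that these genes need not mark seed. The part of the marker genes in the values of the ubiquitin genes was not tested.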

How the data were processed

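Poly-A RNA of WT and *dss1(I)* seedlings was analysed. Per the labels and methods, read filtering by the authors was done in fastp, mapping to TAIR10 in HISAT2 and counting in featureCounts. The counts in the deposited table are raw reads per gene. The scaled counts are a signal that the authors obtained from edgeR by adjusting for library size. FPKM is the authors' count divided by gene length and library total. Columns of the authors' fold changes and p-values were not used, and 0 per-sample columns were left aside.

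Log2 ratios are those of scaled counts plus a pseudocount of 1, and intervals are exact Clopper-Pearson 95% intervals of the ratio of reads. PCR duplicates cannot be told from molecules here, so that intervals and floors (3 reads) cover counting error only. The column that the rule treats as a transcription factor family held protein domains. The genes and lists were chosen with earlier results of these data known, and words for ubiquitin-fold, ubiquitin-related and ubiquitin system proteins were added to the ubiquitin-like class when the descriptions were read. The genes named by rule were, per class, the 3 largest rises and 3 largest falls with at least 10 scaled counts in both libraries, every ubiquitin-like gene, and the 5 highest by mean FPKM. The others are given to account for all 49. In the TAIR10.1 annotation, 2744 of 2762 identifiers matched, all with the same start and end, including the 49. The 18 others are organellar. Near-identical stretches (at least 150 bp at 95% identity) were found with BLAST 2.17.0. The ratios and their intervals were tested on simulated data, and the shares were not. Alternatives were other pseudocounts, minimum counts, scalings, thresholds, numbers of length bands, coding length and the leaving out of words used in another sense. Scripts ran in Python 3.11.15 (scipy 1.17.1, pandas 2.3.3, numpy 2.4.6, matplotlib 3.10.9).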

Additional observations from a re-analysis of the deposited data

How the results depend on the processing

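At a log2 ratio of 2 in place of 1, 1 of the 49 genes was higher and 6 were lower. By class, this threshold left 0 higher and 1 lower RING genes, 1 higher and 4 lower F-box genes, 0 higher and 1 lower E3 genes, and 0 lower ubiquitin-like genes. Scaling by the median ratio over the table, which holds only called genes, raised the log2 ratios by a median of 1.02. It left 7 genes at -1 or less in all, which by class were 1 RING, 5 F-box, 1 E3 and 0 ubiquitin-like genes. A minimum scaled count of 50 left 9 genes at 1 or more, since fewer genes were counted. Without the genes whose words are used in another sense, 14 genes were at 1 or more and 30 at -1 or less. When the 39 genes with a domain entry were added, an alternative chosen after seeing the data, 44 genes of the 88 had a log2 ratio of at least 1. Scaling to equal totals over the table raised the log2 ratios by a median of 0.16. With it 21 genes were at -1 or less, and *RHA1B*, *MUB4* and *MUB6* were no longer past this limit. Over the alternatives none of the 26 genes named by rule reversed direction (0 of 26). This could hardly differ, since the calls needed an absolute log2 fold change of at least 1 and the largest median shift was 1.02. With scaling by the median ratio, *RHA1B*, *MUB4* and *MUB6* came to -0.10, -0.10 and -0.15. Of all 49 genes, 32.7% were higher before and 36.7% after this scaling, so that some did change sign. With 4 or 16 length bands, 32.3% or 29.97% of other genes at the lengths of the 49 genes were higher, with coding length 31.3%, and with scaling by the median ratio 33.1%, beside 36.7% of the 49 genes under that scaling. No paired analysis was possible because there is only 1 library per genotype, and no replicate could be left out. Depth limits the genes with under 10 reads in a library, whose intervals are wide.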
